A study of Mus musculus with 11 samples.

Results

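A group of 8 transcription factor genes that shape activated and innate-like lymphocytes were examined for open chromatin: *Batf*, *Jun*, *Junb*, *Fos*, *Fosl2*, *Maf*, *Irf4* and *Bach2*. The study asked which chromatin regions were accessible in cells that express PLZF, the factor encoded by *Zbtb16*, and in related cells that do not. ATAC-seq, in which a transposase inserts sequencing adapters into accessible DNA, was performed on 9 libraries of C57BL/6 mice. NKT thymocytes (2 libraries, enriched with the CD1d-αGalCer tetramer) were compared with CD4 single positive thymocytes (CD4SP, 2 libraries). Bone marrow innate lymphoid cell precursors (ILCP, 2 libraries, sorted as lineage-negative, IL-7Rα+, α4β7+ and eGFP+) were compared with common lymphoid progenitors (CLP, 3 libraries, sorted as lineage-negative, IL-7Rα+, cKit int, Sca-1 int and Flt3 high). The labels give the strain of the eGFP+ cells as C57BL/6 alone. The methods list a *Zbtb16*-*IRESGFPcre* strain, in which eGFP would mark expression of *Zbtb16*, without tying it to these libraries. Mice were 4 to 8 weeks old in all experiments of the study, no treatment is given for any group, and each library was made from 10000 to 50000 sorted cells. Tissue and lineage cannot be told apart, since both T cell types came from the thymus and both precursors from the bone marrow.

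Each gene was taken with 20 kb on either side, and all ATAC-seq peaks that overlapped this window were counted. Overlapping peaks of the 9 libraries (1 bp or more in common) were joined to intervals, and 69 of the 71400 intervals lay in the 8 windows. *Bach2* held 37 of them, *Irf4* 8, *Junb* 7, *Fos* 5, *Jun* 4, *Batf* 3, *Maf* 3 and *Fosl2* 2, and no gene was without a peak. An interval was called open in a library that had a peak in it. Where all libraries of a type were open and none of the type it was compared with, the interval was called specific to the first. Because scores of different libraries cannot be compared, each peak is given by the percent of its own library's peaks with a higher score, so that 0% is the strongest and 100% the weakest. Where a library had more than 1 peak in an interval, the strongest is given. Read numbers of the single libraries are unknown, and a missing peak says only that none was called.

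CLP replicate 1 stood apart from the rest, with 19343 peaks against 41535 and 40136 in the other CLP libraries, 25771 and 26328 in ILCP, and 33648 to 38793 in the 4 thymic libraries. Counts of intervals, groups that do not overlap in the bone marrow, the *Maf* and *Bach2* differences and the tallies of rank order are therefore given with and without it. The labelled cell types were checked by the start sites of marker genes. All libraries of the type were open at 4 of 5 T lineage genes in CD4SP, 5 in NKT, 0 in CLP and 2 in ILCP, and at all 4 genes of the CLP list in CLP and 2 of 4 in each of the other types. The NKT and ILC list, which includes *Zbtb16*, was open in this way at 2 of 6 genes in CD4SP, 3 in NKT, 1 in CLP and 1 in ILCP. *Zbtb16* itself was open at its start site in 2 of 2 NKT, 2 of 2 ILCP, 1 of 3 CLP and 0 of 2 CD4SP libraries, and in ILCP it is no independent check of the label where the gate read this gene. Of the other lineages, B cell genes were open in all libraries of a type at 1 of 4 start sites in each type, myeloid genes at 1 of 4 in CD4SP, NKT and CLP and 0 in ILCP, and erythroid genes at 1 of 2 in each type but CLP. By peaks in the windows, CLP replicates 2 and 3, which had the longest lists, were highest for B cell genes (20 and 23, against 8 to 14 elsewhere). They were also highest for myeloid genes (12 and 11, against 4 to 8). The T lineage gene *Trac* had no peak at its annotated start in CD4SP, though its window held 6 and 9 peaks there.

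AP-1 is a dimer of a Jun protein (*Jun*, *Junb*) with a Fos protein (*Fos*, *Fosl2*) or with BATF, and it binds the palindrome TGACTCA. Maf and Bach proteins recognise a longer element that contains this palindrome or a shorter part of it, and BACH2 acts mostly as a repressor that holds back effector programmes in lymphocytes. IRF4, induced by antigen receptor signals, binds DNA with BATF and Jun or with Ets factors, and c-Maf controls cytokine genes of several T helper and innate-like cells.

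Among the intervals that separated the cell types, examples of each pattern at *Jun*, *Maf*, *Irf4* and *Bach2* are shown by their central 200 bases, which lie outside exons, on the plus strand of mm10. Capitals mark matches, on either strand, to the 6 motifs that were searched. The first is an interval upstream of *Jun* that was open in all 4 thymic libraries and in no bone marrow library (chr4:95068154-95068353, no match).

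*Jun*, thymic: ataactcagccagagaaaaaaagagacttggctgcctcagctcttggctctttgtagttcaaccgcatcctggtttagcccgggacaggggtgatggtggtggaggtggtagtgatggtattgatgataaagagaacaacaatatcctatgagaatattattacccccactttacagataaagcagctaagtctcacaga

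The second is the interval upstream of *Maf* that was open in NKT and in no other cell type (chr8:115726946-115727145). The capitals mark the Runx motif TGTGGT.

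*Maf*, NKT: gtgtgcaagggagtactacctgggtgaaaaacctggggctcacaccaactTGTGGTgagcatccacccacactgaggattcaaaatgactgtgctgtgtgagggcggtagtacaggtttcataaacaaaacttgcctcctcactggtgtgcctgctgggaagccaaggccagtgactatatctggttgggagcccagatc

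*Irf4* is shown by its upstream thymic interval (chr13:30742525-30742724), where the capitals mark a Maf motif TGCTGAC, and by the intronic interval that was open in ILCP and the thymic cells but not in CLP (chr13:30760775-30760974, no match).

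*Irf4*, thymic: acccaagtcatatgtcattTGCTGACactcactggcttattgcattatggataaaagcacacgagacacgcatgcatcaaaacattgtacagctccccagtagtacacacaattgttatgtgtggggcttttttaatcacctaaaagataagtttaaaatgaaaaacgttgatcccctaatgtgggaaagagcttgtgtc

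*Irf4*, ILCP but not CLP: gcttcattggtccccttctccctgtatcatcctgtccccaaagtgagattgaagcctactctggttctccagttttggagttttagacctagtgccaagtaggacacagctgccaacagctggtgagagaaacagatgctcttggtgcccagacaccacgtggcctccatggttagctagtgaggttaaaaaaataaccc

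*Bach2* is shown by 4 intronic intervals, 1 for each pattern. The thymic one (chr4:32291529-32291728) carries the ISRE core GAAANNGAA, a motif of the IRF family. The one specific to CD4SP (chr4:32375278-32375477) carries the AP-1 motif on the minus strand. The one specific to ILCP (chr4:32307368-32307567) carries 2 Runx motifs, and the one specific to CLP (chr4:32358601-32358800) the EICE core GGAANTGAA on the minus strand, an element joined by Ets factors and IRF4.

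*Bach2*, thymic: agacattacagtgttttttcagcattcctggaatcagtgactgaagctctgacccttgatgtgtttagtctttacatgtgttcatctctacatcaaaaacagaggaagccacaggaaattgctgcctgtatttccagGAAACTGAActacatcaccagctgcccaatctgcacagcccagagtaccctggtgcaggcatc

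*Bach2*, CD4SP: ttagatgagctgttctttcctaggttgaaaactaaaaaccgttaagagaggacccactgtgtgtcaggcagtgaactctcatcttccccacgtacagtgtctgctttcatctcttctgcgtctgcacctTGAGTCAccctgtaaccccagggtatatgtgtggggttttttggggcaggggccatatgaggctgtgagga

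*Bach2*, ILCP: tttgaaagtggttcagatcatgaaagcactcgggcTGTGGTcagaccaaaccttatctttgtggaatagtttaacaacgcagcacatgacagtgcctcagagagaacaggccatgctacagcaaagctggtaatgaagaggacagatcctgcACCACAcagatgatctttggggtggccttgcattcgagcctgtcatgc

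*Bach2*, CLP: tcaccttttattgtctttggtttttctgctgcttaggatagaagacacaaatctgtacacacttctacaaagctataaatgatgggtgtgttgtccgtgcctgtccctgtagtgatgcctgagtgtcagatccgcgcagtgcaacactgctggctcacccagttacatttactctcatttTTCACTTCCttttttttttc

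A further *Bach2* interval, open in all 9 libraries in the first part of the gene, is shown because an AP-1 motif and a Maf motif overlap in it (chr4:32249777-32249976). These bases are the centre of an interval of 3885 bp. CD4SP replicate 2, both NKT libraries, CLP replicate 1 and ILCP replicate 1 had it as 2 peaks. Whether a peak of every library covers the motifs was not determined. The joined run of 10 capitals holds the Maf motif and, 3 bases on, the AP-1 motif, and a second Maf motif lies just before it on the minus strand.

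*Bach2*, all libraries: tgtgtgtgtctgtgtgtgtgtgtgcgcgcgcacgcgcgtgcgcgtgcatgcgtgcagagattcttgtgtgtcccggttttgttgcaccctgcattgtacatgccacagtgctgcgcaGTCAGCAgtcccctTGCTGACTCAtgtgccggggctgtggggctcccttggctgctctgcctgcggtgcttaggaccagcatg

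The intervals of the 8 windows had a median width of 1194 bp, against 1015 bp over all intervals. By their midpoints, 37 lay in introns, 13 in exons and 19 between genes. Open in all 9 libraries were 15 of the 69 (21.7%), against 13.3% of all intervals, and open in a single library were 12 (17.4%), against 18%. Of the 8 intervals over the members' start sites, those of *Batf*, *Jun*, *Junb*, *Fos* and *Bach2* were open in all 9 libraries. All 4 thymic and no bone marrow library were open at 6 intervals (8.7%, against 7.04% of all). All 5 bone marrow and no thymic library were open at 0 intervals, against 2.04% of all. Without CLP replicate 1, 17 intervals (24.6%) were open in the 8 libraries left, against 15.6% of all, and the 6 thymic ones stood against 7.05%. Then 1 interval (1.45%, against 3.58%) was open in the bone marrow alone, that of *Bach2* at 347.9 kb, at 59.9% and 56.6% in CLP and 52.3% and 34.4% in ILCP.

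Intervals specific to a cell type were counted within each tissue. In the thymus, 2 intervals (2.9%) were specific to NKT, at *Fos* and *Maf*, against 4.3% of all intervals, and 4 (5.8%) were specific to CD4SP, all 4 in *Bach2*, against 3.46% of all. In the bone marrow, 4 intervals (5.8%) were specific to ILCP, 2 at *Irf4* and 2 in *Bach2*, against 6.34% of all. A further 5 (7.25%) were specific to CLP, 3 in *Bach2* and 1 each at *Fosl2* and *Junb*, against 5.97%. Without CLP replicate 1 the 4 ILCP intervals stood against 6.35%, while the CLP intervals numbered 13 (18.8%) against 22.2%. The counts are too small to set the 8 windows apart from all intervals. No interval was specific to both NKT and ILCP, a pattern seen at 432 intervals in all.

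The number of peaks per window, plotted by library, gave the comparison of levels. Libraries of the compared types did not overlap at *Maf*, which had more peaks in each NKT than in each CD4SP library (8.83% of the 17731 genes with a peak in their window) and more in each ILCP than in each CLP library (4.53% of genes). *Bach2* had more peaks in each CD4SP than in each NKT library (6.15% of genes), and *Fosl2* more in each CLP than in each ILCP library (9.69% of genes). The other 5 genes overlapped in both tissues. When CLP replicate 1 was left out, *Fos* and *Maf* had more peaks in each ILCP than in each CLP library (5.08% of genes), and *Fosl2* and *Bach2* more in each CLP library, as did 46.3% of genes. With 2 libraries against 2 an exact permutation test cannot go below p = 0.333, and with 2 against 3 not below 0.1, so the values of the single libraries carry these comparisons.

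**Figure D1:**
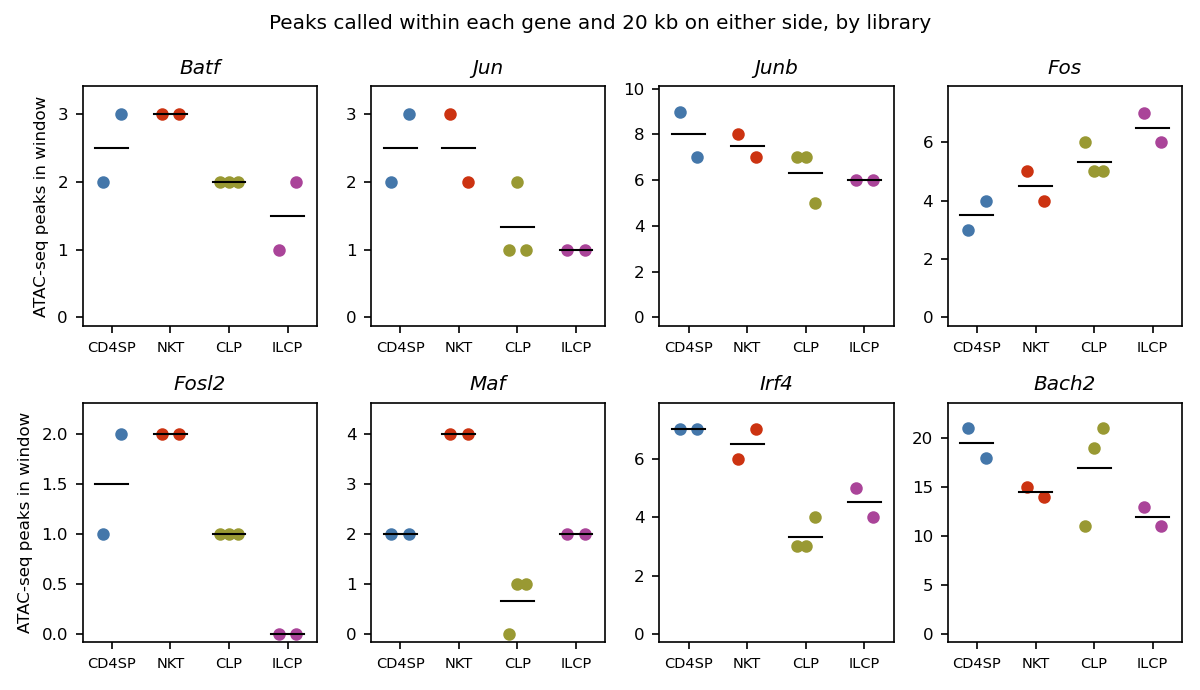
Number of ATAC-seq peaks (vertical axis) in each gene window, by cell type (horizontal axis). Each point is a library and each line a mean. At *Maf* both NKT libraries lie at 4 peaks above both CD4SP libraries at 2, and at *Fosl2* both ILCP libraries lie at 0.

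*Jun* encodes the prototypical AP-1 subunit. Its start site lay in an interval of 7727 bp (chr4:95046855-95054581) (rank 15 by width of all 71400), that was among the strongest peaks of every library, with at most 0.277% of peaks scored higher in any. Its score was 3100 in all 9, a value shared by 58 to 1265 peaks of a library (0.237% to 3.05%), so the rank is a tie. The *Junb* and *Fos* start sites share it where they show the same percent. The window held 2 and 3 peaks in CD4SP, 3 and 2 in NKT, 1, 2 and 1 in CLP, and 1 and 1 in ILCP. The thymic libraries thus held as many or more peaks than the bone marrow ones, and NKT and CD4SP had the same mean. The interval 16.0 kb upstream (chr4:95067572-95068935) was open at 38% and 69% in CD4SP and at 12.2% and 28.5% in NKT, and had no peak in the 5 bone marrow libraries. The NKT peaks ranked above both CD4SP peaks there. The base pairs covered in the window were 5065 to 5964 in the thymic and 6715 to 7580 in the bone marrow libraries, so by this measure the bone marrow was higher. The 2 further intervals were each open in a single library, at 90.1% in CD4SP replicate 2 and 99.9% in CLP replicate 2, near the bottom of both lists.

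*Junb* encodes a Jun protein that pairs with BATF and Fos proteins in T cells. It lies among other genes, and 5 of its 7 intervals were nearest to a start site of *Gm49661*, *Prdx2* or *Hook2*. Its own start site interval (chr8:84975212-84980756, 5545 bp) was open in all 9 libraries, at 31.4% and 0.259% in CD4SP, 20.6% and 0.17% in NKT, 3.73%, 0.277% and 0.257% in CLP, and 2.19% and 5.13% in ILCP. In both thymic types the libraries of 1 group differed by more than the groups did. The interval was called as 4 peaks in CD4SP replicate 1 and 3 in NKT replicate 1, and as 1 peak in the other library of each. In the whole window 9 and 7 peaks were called in CD4SP, 8 and 7 in NKT, 7, 7 and 5 in CLP, and 6 and 6 in ILCP. The groups of each tissue overlapped. The interval 19.4 kb upstream, in an exon of the neighbouring *Hook2*, was open in the 7 CD4SP, NKT and CLP libraries and in neither ILCP library.

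*Fos* encodes the Fos protein that is induced within minutes by many signals. Its start site interval (chr12:85471752-85479411, 7660 bp) ranked at 0.879%, 0.277% and 0.257% in CLP, 8.52% and 3.84% in ILCP, 19% and 7.08% in CD4SP, and 18.9% and 9.77% in NKT. Each CLP peak ranked above each ILCP peak, and by percent ILCP overlapped CD4SP through ILCP replicate 1. By rank number all bone marrow peaks lay above all thymic peaks (103 to 2243 peaks above it against 2685 to 6558). The interval 18.4 kb upstream (chr12:85454690-85456212) ranked higher in the thymus. It lay at 4.69% and 0.211% in CD4SP, 6.77% and 3.01% in NKT, 10.9%, 17% and 20.2% in CLP, and 24.4% and 23.4% in ILCP. By percent all thymic peaks thus ranked above all bone marrow peaks there, and all CLP peaks above both ILCP peaks. Neither order held by rank number, since CLP replicate 1 had 2106 peaks above it and NKT replicate 1 had 2349, and ILCP replicate 2 had 6035 against 8107 in CLP replicate 3. Another interval 5.1 kb upstream was open in the 3 CLP libraries (54.8% to 63.3%) and in ILCP replicate 2 (85.6%) but in no thymic library, and the interval 12.1 kb downstream was open in all 9 at 20.9% to 39.1%. The NKT-specific interval 14.1 kb downstream (chr12:85487683-85488230) was weak, at 97.2% and 85.9%.

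The *Fos* window held 3 and 4 peaks in CD4SP, 5 and 4 in NKT, 6, 5 and 5 in CLP, and 7 and 6 in ILCP. The difference of the means was 1 between NKT and CD4SP and 1.17 between ILCP and CLP (p = 0.667 and 0.3, exact permutation tests, two-sided), with groups that overlapped. The start site interval was called as 5 and 3 peaks in ILCP and as 2 or 3 in CLP, and by the base pairs covered the bone marrow difference turned to -1587 bp, with CLP higher (8640 to 10250 bp against 7886 and 8292 bp in ILCP).

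*Fosl2* encodes FRA2, a Fos protein without the strong activation domain of c-Fos. Its start site interval (chr5:32134744-32136886) was open at 27.3% and 12.9% in CD4SP, 33.2% and 11.1% in NKT, and 56.4%, 33.8% and 24.3% in CLP, and had no peak in either ILCP library. Neither ILCP library had a peak anywhere in the window, while the other 7 libraries had 1 or 2. *Fosl2* was the one start site among the 8 without a peak in any library of a cell type. A second interval 2.4 kb upstream was open in CD4SP replicate 2 (97.9%) and both NKT libraries (90.2% and 53.6%). The means were 2 peaks in NKT and 1.5 in CD4SP (p = 1), and 0 in ILCP and 1 in CLP (p = 0.1, the smallest this design allows, exact permutation test). The 2 differences differed by 1.5 peaks (p = 0.05, exact permutation of the labels within each tissue). This p was the lowest of the 8 members, the next being 0.15 at *Irf4*, and none was adjusted for the number of genes. The ILCP libraries held fewer peaks in all than CLP replicates 2 and 3 but more than CLP replicate 1, which had the *Fosl2* peak, and the part of depth in the missing peaks was not tested.

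*Batf* encodes the BATF subunit that joins Jun proteins and IRF4. Its start site interval (chr12:85685962-85687497) was open at 17.8% and 23% in CD4SP, 30.5% and 20.3% in NKT, 76.3%, 53.8% and 62.3% in CLP, and 43.5% and 67.4% in ILCP. The thymic peaks all ranked above the bone marrow peaks, and within each tissue the types overlapped. An interval 1.3 kb inside the gene was open in CD4SP replicate 2 (92.7%) and both NKT libraries (67.7% and 78.4%) and in no bone marrow library. The interval 18.9 kb downstream, in an intron, was open in all libraries but ILCP replicate 1, and in ILCP replicate 2 its peak was among the weakest (99.1%). With 2 and 3 peaks in CD4SP, 3 and 3 in NKT, 2 in each CLP, and 1 and 2 in ILCP, the groups of both tissues overlapped.

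**Figure D2:**
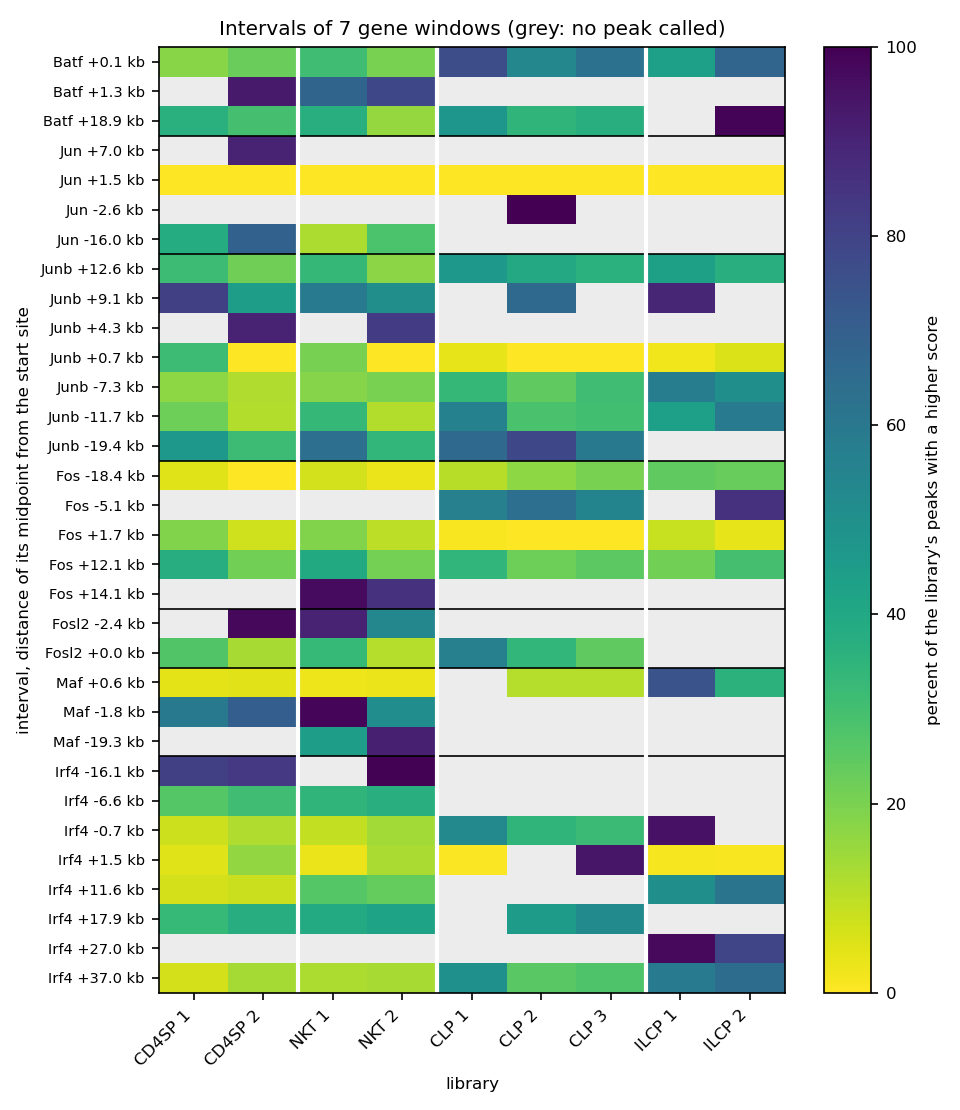
Intervals of 7 windows (rows, by distance of the midpoint from the start site in kb, upstream negative) in the 9 libraries (columns), coloured by the percent of the library's peaks with a higher score (0 strongest, grey no peak). The *Jun* start site interval is among the strongest in all libraries, both *Fosl2* intervals are grey in ILCP, and several *Irf4* intervals are grey in CLP.

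*Maf* encodes c-Maf, a large Maf protein. Its start site interval (chr8:115705485-115708853) was strong in the thymus, at 3.97% and 4.42% in CD4SP and 2.39% and 2.84% in NKT. It was lower in the bone marrow, at 11% and 11.3% in CLP replicates 2 and 3 and at 74.5% and 35.8% in ILCP, and had no peak in CLP replicate 1. Both NKT peaks ranked above both CD4SP peaks, and both ILCP peaks below the CLP peaks that were called. The interval 1.8 kb upstream (chr8:115709074-115710064) was open in the 4 thymic libraries alone, at 59.4% and 70% in CD4SP and 98.8% and 50.8% in NKT. The NKT-specific interval 19.3 kb upstream (chr8:115726557-115727533), whose sequence is given above, ranked at 44.1% and 91.1% in the 2 NKT libraries and had no peak in the other 7.

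The *Maf* window held 2 and 2 peaks in CD4SP, 4 and 4 in NKT, 0, 1 and 1 in CLP, and 2 and 2 in ILCP. NKT exceeded CD4SP by 2 peaks (p = 0.333) and ILCP exceeded CLP by 1.33 (p = 0.1), each the smallest p of its exact permutation test. The sum of both differences was 3.33 peaks (p = 0.0167 by exact permutation, the smallest that the 60 arrangements within the tissues can give, two-sided, adjusted p = 0.993 by Benjamini-Hochberg over 17731 genes). Without CLP replicate 1 the bone marrow difference was 1 (p = 0.333) and the sum 3 (p = 0.0556, the smallest of 36 arrangements, exact permutation tests). An unadjusted p under 0.05 was reached by 0.942% of genes with more peaks, and also by 0.942% with fewer, among which was no member. Over all genes, 334 passed 0.05 before adjustment and 0 after it.

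The count at *Maf* turned in the bone marrow by covered length and among the stronger peaks, though not per 10000 peaks (0.605, p = 0.1, exact permutation test), and was smaller among the stronger peaks in the thymus. The ILCP peaks were 2 calls within the start site interval, which CLP replicates 2 and 3 had as 1 broader peak. The covered length was 1283 and 1819 bp in ILCP and 0, 2831 and 3092 bp in CLP, a difference of -423 bp (p = 0.9, exact permutation test), and with the higher-ranked 50% of peaks the difference of peak numbers was -0.167. The 0 bp is that of CLP replicate 1, and without it both CLP libraries lay above both ILCP libraries in covered length. In the thymus the covered length kept the direction, with 4450 and 4698 bp in NKT against 2740 and 3512 bp in CD4SP. The difference fell from 2 peaks to 0.5 (p = 1, exact permutation test) with the 19343 highest-ranked peaks of each library and also with the higher-ranked 50%, and was 1 with windows extended by 5 kb or not at all. There too the start site interval counted as 2 peaks in each NKT library and 1 in each CD4SP library, and the other extra NKT peak was the one 19.3 kb upstream.

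**Figure D3:**
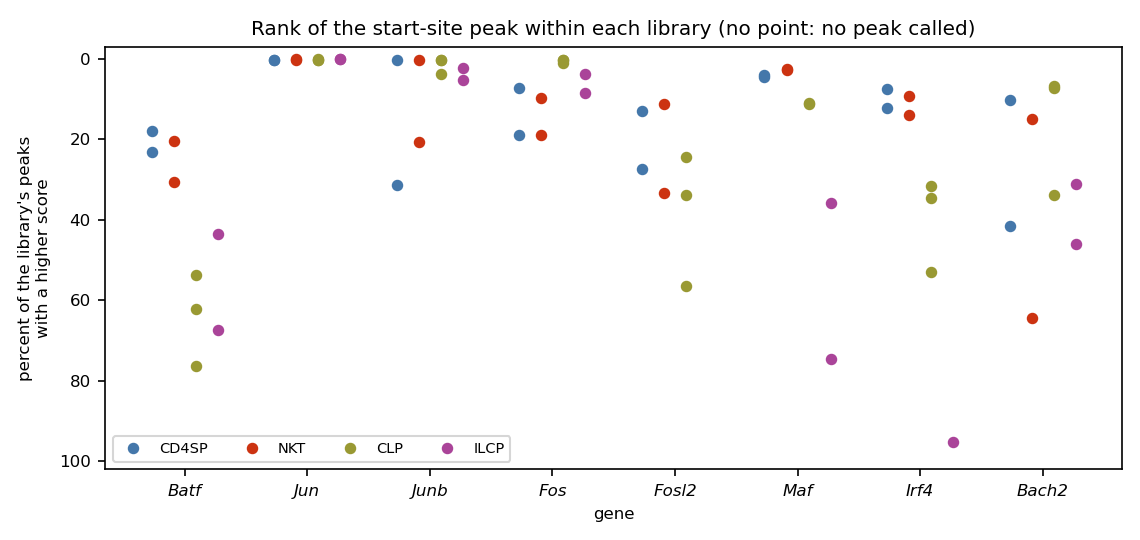
Rank of the peak at each member's start site: percent of the library's peaks with a higher score (vertical axis, strongest at the top) for each gene (horizontal axis), each point a library. *Jun* lies near 0 in all types, thymic points lie above bone marrow points at *Batf*, *Maf* and *Irf4*, and ILCP has no point at *Fosl2*.

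*Irf4* encodes a factor whose dose steers lymphocyte fates. In covered length its window was higher in all thymic than in all bone marrow libraries, as at no other of the 8 genes, with 9847 and 10365 bp in CD4SP, 8406 and 10071 bp in NKT, 2800, 3368 and 4154 bp in CLP, and 3803 and 3337 bp in ILCP. The peaks numbered 7 and 7 in CD4SP, 6 and 7 in NKT, 3, 3 and 4 in CLP, and 5 and 4 in ILCP. The order of thymus and bone marrow held for the peak numbers too. NKT and CD4SP differed by -0.5 peaks (p = 1) and ILCP and CLP by 1.17 peaks (p = 0.3, exact permutation tests), with overlapping groups. With the higher-ranked 50% of peaks the second difference was -1.33 (p = 0.1, exact permutation test), with CLP higher.

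The start site interval of *Irf4* (chr13:30747194-30749872) ranked at 7.47% and 12.1% in CD4SP, 9.13% and 13.8% in NKT, and 53%, 34.6% and 31.7% in CLP. In ILCP it was called in replicate 1 alone, at 95.3%. The thymic types could not be told apart there, and both precursors lay lower. Just inside the gene, 1.5 kb from the start site (chr13:30750146-30751312), the order was unlike that of the start site. There the peak ranked at 4.83% and 16.1% in CD4SP, 2.91% and 12.6% in NKT, 0.543% in CLP replicate 1, 93.8% in CLP replicate 3, and 1.33% and 0.927% in ILCP, with none in CLP replicate 2. The 3 CLP libraries disagreed at this interval by nearly the whole range of ranks, so that no level can be given for CLP.

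Around the gene ILCP shared some intervals with the thymic cells and lacked others. The interval 6.6 kb upstream (chr13:30741988-30743261) was open in the 4 thymic libraries alone, at 26.2% and 30.5% in CD4SP and 34.6% and 37.1% in NKT. The intronic interval 11.6 kb downstream of the start site (chr13:30759845-30761903) was open at 6.59% and 8.18% in CD4SP, 26.2% and 23.5% in NKT, and 50% and 61.7% in ILCP, and had no peak in the 3 CLP libraries. Both CD4SP peaks ranked above both NKT peaks, and those above both ILCP peaks. The interval 17.9 kb downstream had the complementary pattern in the bone marrow, open in the 4 thymic libraries (33% to 42.1%) and in CLP replicates 2 and 3 (45% and 52.7%) but in neither ILCP library. At 27.0 kb (chr13:30775904-30776548) a weak interval was open in ILCP alone, at 97.3% and 79.1%. The interval at 37.0 kb (chr13:30785487-30787027), beyond the end of the gene, was open in all 9 libraries, and its thymic peaks (6.34% to 13.4%) all ranked above those of CLP (25.5% to 49.7%), which ranked above those of ILCP (59% and 64.8%).

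*Bach2* spans 347305 bp, and its 37 intervals were the most of the 8 genes, though per length (9.55 in each 100 kb of window) fewer than at *Junb* (15.8), *Irf4* (13.9) and *Fos* (11.5). By library the window held 21 and 18 peaks in CD4SP, 15 and 14 in NKT, 11, 19 and 21 in CLP, and 13 and 11 in ILCP. NKT had 5 peaks fewer than CD4SP on average, 14.5 ± 0.707 against 19.5 ± 2.12 (SD, n = 2 each), and the groups did not overlap (p = 0.333, the smallest of the exact permutation test). ILCP had 12 ± 1.41 (SD, n = 2) and CLP 17 ± 5.29 (SD, n = 3), again 5 fewer, but CLP replicate 1 lay at the ILCP level (p = 0.4, exact permutation test). Without CLP replicate 1 the difference was -8 and the groups did not overlap (p = 0.333, exact permutation test). Per 10000 peaks of the list, however, *Bach2* had 5.69, 4.57 and 5.23 peaks in CLP and 4.94 and 4.27 in ILCP, groups that overlap with and without CLP replicate 1 (difference -0.561, p = 0.4, exact permutation test). With the 19343 highest-ranked peaks of each library the differences were -2.5 in the thymus and -1.5 in the bone marrow, and with the higher-ranked 50% they were -1.5 and -2.33, each in the same direction but smaller. The sum of both differences was -10 (p = 0.0833, exact permutation within the tissues, adjusted p = 0.993 over all genes), and -13 without CLP replicate 1 (p = 0.0556, exact permutation test). By covered length CD4SP again lay above NKT, with 19168 and 20640 bp in CD4SP and 15235 and 16328 bp in NKT. In the bone marrow it was 26673 and 26544 bp in CLP replicates 2 and 3, 9423 bp in replicate 1, and 11221 and 10111 bp in ILCP.

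The intervals divided by position, as the map along *Bach2* shows. Within 30 kb of the start site lay 5 intervals, of which 3 were open in all 9 libraries. From 30 to 170 kb lay 20, of which 2 were open in all 9, and here the number open in at least 1 library of the type was 12 in CD4SP, 8 in NKT, 10 in CLP and 4 in ILCP. By library these were 11 and 10 in CD4SP, 7 and 6 in NKT, 4, 10 and 10 in CLP, and 4 and 3 in ILCP, so that CLP replicate 1 lay at the ILCP level. Beyond 170 kb lay 12, of which 0 were open in all libraries, with 4 in CD4SP, 4 in NKT, 7 in CLP and 5 in ILCP. For 12 intervals in the distal part the nearest start site was that of *Gja10*, a connexin gene. These limits of 30 and 170 kb were set after the positions had been seen.

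**Figure D4:**
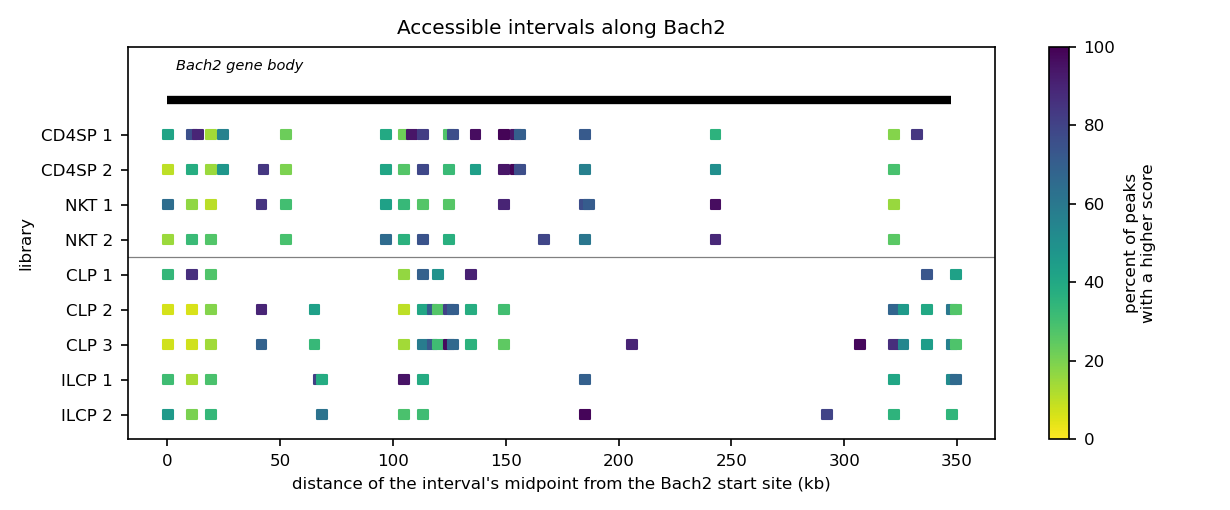
Peaks along *Bach2* by distance from its start site in kb (horizontal axis) in the 9 libraries (vertical axis), coloured by the percent of the library's peaks with a higher score. Of the 5 intervals within 30 kb of the start site 3 are open in all libraries, and between 30 and 170 kb the CD4SP libraries and CLP replicates 2 and 3 show more intervals than ILCP.

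The start site of *Bach2* (chr4:32237938-32240526) ranked at 41.5% and 10.1% in CD4SP, 64.5% and 14.9% in NKT, 33.8%, 6.6% and 7.28% in CLP, and 31.2% and 45.9% in ILCP. In the thymus the replicates differed more than the cell types. In the bone marrow CLP replicates 2 and 3 ranked above both ILCP libraries, and by rank number all 3 CLP libraries did (2741 to 6530 peaks above it against 8221 and 11830). The start site interval was called as 2 peaks in both ILCP libraries, CLP replicate 1 and CD4SP replicate 1, and as 1 peak in the others. The part of this splitting in the ranks was not tested. The interval 11.1 kb inside the gene (chr4:32247934-32251818), whose centre carries the overlapping AP-1 and Maf motifs, ranked at 75.4% and 38.1% in CD4SP, 16.5% and 32.4% in NKT, 86.5%, 6.24% and 7.28% in CLP, and 13.2% and 20.2% in ILCP. These ranks are those of the strongest peak in its 3885 bp, which need not cover the motifs. Both NKT peaks ranked above both CD4SP peaks, while CLP replicates 2 and 3 ranked above ILCP and replicate 1 far below. The interval at 113.5 kb (chr4:32350974-32353555) ranked at 82.1% and 78.3% in CD4SP, 26.9% and 74.6% in NKT, 69.5%, 40.5% and 58.5% in CLP, and 39% and 31.2% in ILCP. Here NKT ranked above CD4SP and ILCP above CLP, in each library. By rank number, which does not scale with the length of the list, NKT replicate 2 (28931 peaks above it) fell below CD4SP replicate 1 (27641), and the order of ILCP and CLP was kept. At 105.0 kb (chr4:32342937-32344674) the order was turned, with 21.9% and 26.8% in CD4SP, 33.1% and 36.2% in NKT, 16.2%, 9.92% and 13.7% in CLP, and 94.8% and 28.7% in ILCP.

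Of the *Bach2* intervals, 4 were specific to CD4SP. Those at 24.8 kb (55.7% and 47.4%) and 136.6 kb (96.6% and 44.1%) had a peak in the upper 50% of at least 1 library, and those at 154.7 kb (94% and 99.1%) and 156.2 kb (70% and 76.3%) did not. None of the 4 had a peak in any bone marrow library, so each was found in CD4SP alone. The 3 thymic intervals, open in CD4SP and NKT but in no precursor, lay at 52.8 kb (19.6% to 30.4%), 97.1 kb (39.7% to 65.3%) and 243.0 kb (35.9% to 96.8%). The first of these was among the stronger intervals of the gene in all 4 libraries. At 125.0 kb a peak of similar rank in the thymus (26.4% to 36.8%) was joined by weak peaks in CLP replicates 2 and 3 (80.5% and 97.5%).

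In the precursors, the CLP-specific intervals at 119.9 kb (49%, 26.9% and 31.2%), 134.6 kb (90.9%, 37.7% and 35.6%) and 336.5 kb (73.4%, 40% and 44.6%) had no peak in any of the other 6 libraries. Intervals at 65.3, 117.6 and 326.3 kb were open in CLP replicates 2 and 3 and in no other library. The ILCP-specific interval at 68.7 kb (38.6% and 62%) was found in ILCP alone. The other, at 185.0 kb, was weak in ILCP (69.8% and 98.8%) and was open in all 4 thymic libraries as well (56.9% to 76.7%). Without CLP replicate 1, *Bach2* held 10 of the 13 CLP-specific intervals.

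Over the 15 intervals open in all 9 libraries, all thymic peaks ranked above all bone marrow peaks at 5, against 23.1% of all 9464 such intervals. These were the *Batf* start site, the upstream *Fos* interval, the *Irf4* interval at 37.0 kb and 2 in the *Junb* window. The reverse held at 0 (8.04% of all). NKT ranked above CD4SP at 2 (23% of all), both in *Bach2*, and CD4SP above NKT at 2 (14.7%). ILCP ranked above CLP at 1 (11.1%), and CLP above ILCP at 6 (23.3%). Without CLP replicate 1 the thymic peaks ranked above at 5 (23.4% of all) and below at 0 (13.4%), ILCP above CLP at 2 (12.5%) and CLP above ILCP at 10 (67.6%). Of the 2 with ILCP above, 1 was the *Jun* start site, whose score of 3100 was shared by all libraries. Its order there only gives the number of peaks above that score, 11 and 10 in ILCP and 115 and 103 in CLP replicates 2 and 3. When the rank number replaced the percent (chosen after seeing the data, as were the values without CLP replicate 1 other than the counts of specific intervals and the single differences), all thymic peaks ranked above all bone marrow peaks at 2 intervals in place of 5 and the reverse held at 1 in place of 0, the *Fos* start site. By rank number NKT ranked above CD4SP at 1 in place of 2, and CLP above ILCP at 5 in place of 6.

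The motifs were counted in the central 200 bases of the 69 intervals, on both strands, and the shares carry Wilson 95% intervals that cover counting error only. The AP-1 motif TGACTCA was found in 5 (7.25%, 3.13 to 15.9), against 4.78% of all intervals, at *Fosl2*, *Irf4* and *Bach2*. The CRE TGACGTCA, bound by Jun and ATF proteins, was found in 0 (at most 5.27%), against 0.515%. The Maf motif TGCTGAC was found in 3 (4.35%, 1.49 to 12), against 3.85%. The EICE core was found in 5 (7.25%, 3.13 to 15.9), against 3.07%, all at *Irf4* and *Bach2*, and the ISRE core in 7 (10.1%, 5 to 19.5), against 7.95%, at the same pair of genes. The Runx motif was found in 13 (18.8%, 11.4 to 29.6), against 25.1%. The share over all intervals lay inside the confidence interval for 5 of the 6 motifs, and for the EICE core just below it (3.07% against 3.13%). These limits treat the 69 intervals as independent, though 37 of them lie in the *Bach2* window and neighbours are not independent. No motif is therefore set apart by them. Over whole intervals the EICE core was found in 14.5%, against 12% of all intervals. An AP-1 motif that overlaps a Maf motif as in *Bach2* was found in 115 intervals in all (0.161%), 17 of them open in all 9 libraries. A match is a run of letters and not a measured site of binding.

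The other genes of these families were counted in the same way. All 25 of them, from the Jun, Fos, Batf, Atf, Maf, Bach, Nfe2 and Irf groups, had at least 1 peak in their window, with 162 intervals. *Batf3* and *Jund* had more peaks in both NKT libraries than in both CD4SP libraries, *Bach1* and *Nfe2l2* more in both CD4SP libraries, and *Fosb* more in the 3 CLP than in both ILCP libraries, while none had more in ILCP. *Nfe2l2* had the lowest unadjusted p of the summed difference (0.05, exact permutation test, adjusted p = 0.993). Over all genes these patterns had shares of 8.83% (NKT), 6.15% (CD4SP), 9.69% (CLP) and 4.53% (ILCP), and counts this small are not set apart from them. Of the 162 intervals, 7 were specific to NKT, 3 to CD4SP, 5 to ILCP and 9 to CLP, where 4.3%, 3.46%, 6.34% and 5.97% of all intervals were. With CLP replicate 1 left out, 15 of the 25 genes, *Fosb* among them, had more peaks in both CLP libraries (46.3% of all genes) and 0 in ILCP (5.08%). The specific intervals were then 6 in ILCP and 37 in CLP, against 6.35% and 22.2% of all.

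The genes whose covered length followed a member's most closely over the 9 libraries, by Pearson's r as a description, were *Cpm* for *Irf4* (0.996), *Fgd3* for *Bach2* (0.994), *Ndufb9* for *Fosl2* (0.990), *Ccer2* for *Junb* (0.987), *Fbxo3* for *Maf* (0.986), *Klf2* for *Fos* (0.964) and *Klf11* for *Jun* (0.954). The 9 points share the depth of each library, and the best of all genes was taken for each member named here.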

How the data were processed

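Peak lists of 9 ATAC-seq libraries were used, grouped by cell type from the sample labels. The Runx1 chromatin immunoprecipitation and its input were not analysed here. Reads of 50 bp had been mapped to mm10 by bowtie with up to 2 mismatches, and MACS run on every library by itself. The authors deposited the positions of the peaks with a score of the peak caller, whose lowest value was 120. Picard is named in the submitters' processing notes with no role, and HOMER made the tracks of the ChIP-seq according to the methods. The MACS version, the treatment of duplicates and the shift of read ends are not given in the sources used here. Starts were converted to positions counted from 1.

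Peaks were merged with code in Python 3.11.15 (numpy 2.4.6, pandas 2.3.3, scipy 1.17.1), with genes and exons from GENCODE M21 and sequence from GRCm38.p6. Differences in peak number were tested by permuting library labels exactly (two-sided), for both tissues together within each tissue, and adjusted by Benjamini-Hochberg (statsmodels 0.14.6) over 17731 genes. The code was tested on simulated data. All 8 members are named, with their specific and start site intervals and examples of the others. Genes named beside a member had the highest Pearson's r of covered length. The gene found for *Batf* is not reported here. The members and lists were chosen with earlier results of these data known. The libraries are replicates by their labels, and the methods of the study call the replicates biological. Each p-value is the share of arrangements of the library labels that gave a difference at least as large.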

Additional observations from a re-analysis of the deposited data

How the results depend on the processing

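Counts of specific intervals depended on how strong a peak had to be. With the 19343 highest-ranked peaks of each library, NKT-specific intervals fell from 2 to 0 and CD4SP-specific ones from 4 to 2. With the higher-ranked 50% of peaks they were 0 and 0, and ILCP-specific ones fell from 4 to 1. With windows extended by 5 kb, or not extended, the NKT-specific count was 0. When an interval was open in any library of the type and none of the other, the counts were 5 for NKT, 10 for CD4SP and 16 for CLP. With intervals given to the nearest start site, the CLP-specific count was 3 in place of 5. Leaving out 1 library at a time gave 2 to 4 for NKT, 5 to 8 for CD4SP and 5 to 13 for CLP (13 without CLP replicate 1). The NKT count was 4 without CD4SP replicate 2 and 4 without NKT replicate 2, and the CD4SP count was 8 without CD4SP replicate 2.

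Of 216 alternative values of the 16 differences in peak number, 174 kept their direction, 23 went to 0, 9 left the 0 of *Jun* between NKT and CD4SP, and 10 reversed. No setting could bring p under 0.05 in groups of this size, so the p-values say nothing of stability. Reversed were *Junb* between NKT and CD4SP when libraries were left out in turn (-1.5 to 0.5), and *Junb* between ILCP and CLP with the highest-ranked peaks (0.5), with 5 kb (0.667), with the nearest start site (0.5) and per 10000 peaks (0.12). So were *Fos* between ILCP and CLP in base pairs covered (-1587 bp), *Maf* between ILCP and CLP with the highest-ranked peaks (-0.167), the higher-ranked 50% (-0.167) and in base pairs covered (-423 bp), and *Irf4* between ILCP and CLP with the higher-ranked 50% (-1.33). The cause was not tested. Over whole intervals the shares with a match were 21.7% for AP-1, 24.6% for the Maf motif, 36.2% for the ISRE core, 68.1% for Runx, 14.5% for the EICE core and 4.35% for the CRE, against 19.7%, 17.4%, 34.5%, 63.8%, 12% and 1.82% of all intervals.

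Replicate numbers are shared by the labels alone. Deviations of the first replicates from their group means, over 17731 genes, correlated at 0.49 between NKT and CD4SP and at -0.04 between ILCP and CLP. The replicate block used replicates 1 and 2, and for the specific intervals it is the same rule asked pair by pair, which tests nothing further. The paired differences were 2 and 1.5 peaks at *Maf* and -5 and -3 at *Bach2*, where the bone marrow pairs went opposite ways (ILCP 13 against CLP 11 in replicate 1, 11 against 19 in replicate 2), and with 2 pairs p cannot go below 0.5. The depth of the single libraries is unknown, the methods giving a range of read numbers for all of them together, and it limits what a missing peak can show.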
